A study of Danio rerio with 6 samples.

Results

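Genes that nearly all white blood cells use for their actin cytoskeleton and surface signalling were read in cells sorted from zebrafish embryos. The group named 5 genes, coro1a, lcp1, ptprc, rac2 and laptm5, and its members were the rows of the count table with exactly these symbols. Of the 29361 gene symbols, 4 were members with a row and 4 of these entered the tests, while laptm5 had no match by exact symbol and was not analysed here. The libraries came from embryos at 48 hours after fertilisation, 3 from fish labelled wildtype and 3 from fish labelled mafba uq4bh mutant, and all 6 carried the transgene kdrl eGFP. The promoter of kdrl drives expression in endothelial cells, and the samples are labelled as purified endothelial cells, but the protocol text also names brains and a pdgfr beta reporter, so the tissue and the gate are not settled by the labels. Whether the mutants were homozygous, the position of the lesion and the number of embryos behind each library are not given in the sources. The labels do not state that a genotype's 3 libraries came from separate embryo pools, so p-values measure only how far these libraries spread, which may be technical. The series title names mafba as an effector of Vegfc signalling, and the comparison here asks whether the shared leukocyte genes differed between the genotypes.

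The products of these genes work on 2 connected tasks. Leukocytes crawl by building and breaking down branched and bundled actin at the cell cortex: coronin 1A, the product of coro1a, binds actin filaments and the Arp2/3 complex that branches them, L-plastin, the product of lcp1, bundles filaments, and the small GTPase Rac2 signals from surface receptors to actin and to the phagocyte NADPH oxidase. CD45, the receptor tyrosine phosphatase encoded by ptprc, sets the activity of Src family kinases, and laptm5 encodes a lysosomal membrane protein that in mice and humans lowers surface levels of antigen receptors. In zebrafish embryos antibodies to L-plastin and reporters of coro1a are used to see neutrophils and macrophages together. No sequences of these genes were at hand, so none are shown.

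Reads on genes ranged from 43859736 to 52923490 per library, and 19230 to 21098 genes were detected. Levels are given as CPM, counts relative to a library size scaled with TMM factors, and can be compared between libraries for 1 gene but not between genes, because gene length was not taken into account. The gene mafba itself stood at 32.9, 45.8 and 33.3 CPM across wild-type 1 to 3 and at 31.0, 39.6 and 38.6 CPM across mutant 1 to 3, so the genotypes overlapped; what the lesion does to the transcript is not given in the labels, and this level does not check them. The 4 members held 46322 to 78523 reads per library, and the counting error of a member in a library was at most 1.51% of its reads.

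The 4 members with a row were read in every library, and the genotype means of each differed by less than the SD of the mutant libraries. For lcp1 they differed by more than the SD of the wild-type libraries. The actin regulator gene coro1a stood at 461, 418 and 522 CPM across wild-type 1 to 3 and at 376, 557 and 502 CPM across mutant 1 to 3. Mutant 1 was the lowest library and mutant 2 the highest, so the wild-type values lay inside the mutant range. Wild-type and mutant means were 467 ± 52.3 and 478 ± 92.5 CPM (SD, n = 3 each). On the log2 scale mutant minus wild-type came to 0.03 ± 0.17 (SE; 95% interval -0.34 to 0.41).

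The actin bundling gene lcp1 stood at 420.4, 463 and 435 CPM across wild-type 1 to 3 and at 351, 572 and 502 CPM across mutant 1 to 3. The wild-type libraries were close together, and the mutant libraries lay on both sides of them, with mutant 1 lowest and mutant 2 highest. The means were 439.7 ± 21.8 and 475 ± 113 CPM (SD, n = 3 each) and the log2 difference came to 0.11 ± 0.18 (SE; 95% interval -0.28 to 0.50).

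The CD45 gene ptprc stood at 122, 109 and 135 CPM across wild-type 1 to 3 and at 93.6, 125 and 139.7 CPM across mutant 1 to 3. Here too mutant 1 was lowest, but mutant 3 rather than mutant 2 was highest, and the genotypes overlapped. The means were 122 ± 12.98 and 119 ± 23.5 CPM (SD, n = 3 each) and the log2 difference came to -0.03 ± 0.17 (SE; 95% interval -0.41 to 0.34).

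The GTPase gene rac2 stood at 201, 175 and 187 CPM across wild-type 1 to 3 and at 163, 213 and 191 CPM across mutant 1 to 3. It varied least between libraries, with a coefficient of variation of 9.45% over the 6 libraries against 14.3% for coro1a, 16.5% for lcp1 and 14.1% for ptprc. Among the 1428 tested genes with a mean of at least 100 CPM the median was 12.3%. The means of rac2 were 188 ± 13.1 and 189 ± 24.9 CPM (SD, n = 3 each) and the log2 difference came to 0.01 ± 0.15 (SE; 95% interval -0.31 to 0.33).

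**Figure D1:**
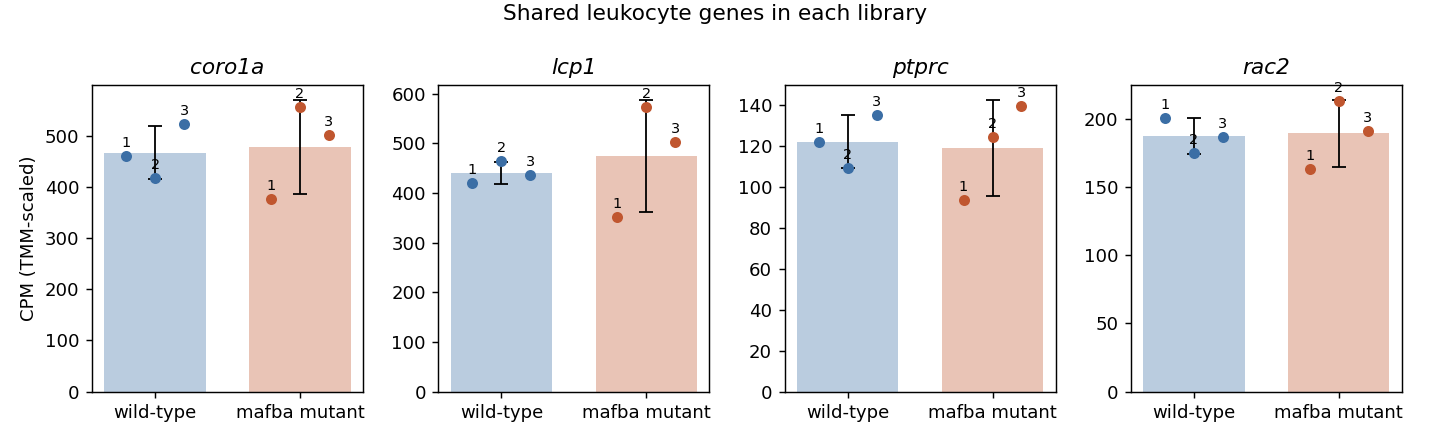
CPM of coro1a, lcp1, ptprc and rac2 in wild-type and mafba mutant libraries, with points for single libraries numbered by replicate, bars for means and error bars for SD (n = 3 each). In each panel mutant 1 is the lowest of the 6 points, and the mutant points lie on both sides of the wild-type mean.

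None of the 4 members passed in edgeR's quasi-likelihood test with p-values adjusted over all genes by Benjamini-Hochberg (adjusted p = 1.00 for each). That test called 0 of 19381 genes, a background of 0%. At an unadjusted p under 0.05 it had 305 genes (1.57%) and 0 of the 4 members, the smallest p among them being 0.546 for lcp1. DESeq2 and limma-voom each called 0 genes too. Unadjusted, 358 genes (1.85%) in DESeq2 and 461 (2.38%) in limma-voom were under 0.05, none of them a member. In 0 of the 4 members did the genotypes fail to overlap, where every mutant library stood above every wild-type library in 3.38% of tested genes and below in 3.36%. In terms of precision, the 95% intervals reached from 0.790 to 1.33 times the wild-type level for coro1a, 0.824 to 1.42 times for lcp1, 0.755 to 1.26 times for ptprc and 0.809 to 1.26 times for rac2. A change of 1.5-fold in either direction therefore lay outside the interval of each of the 4 genes. These intervals hold under the edgeR fit, which draws on the variance of other genes and uses the same dispersion for both genotypes. For lcp1 the SD was 113 CPM in the mutant and 21.8 CPM in the wild-type libraries. Like the p-values, the intervals reflect only how far these libraries spread. With each library left out in turn the fitted differences ranged over -0.09 to 0.18 for coro1a, -0.04 to 0.29 for lcp1, -0.16 to 0.11 for ptprc and -0.08 to 0.11 for rac2, so that no direction can be given for any of the 4. The lowest values of coro1a, lcp1 and rac2 came without mutant 2 and the highest values of all 4 without mutant 1. The number of leukocytes in a library and the RNA per leukocyte cannot be told apart in these bulk samples.

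The 4 members had the same lowest library. Relative to the mean of the 6 libraries on the log2(CPM + 1) scale, the mean of the 4 members stood at 0.00, -0.09 and 0.07 across wild-type 1 to 3 and at -0.31, 0.21 and 0.12 across mutant 1 to 3. Mutant 1 was the lowest library for 4 of the 4 members, where it was the lowest for 13.8% of 8659 other genes with a mean of at least 10 CPM. Mutant 2 was the highest for 3 of them, against 19.0% of those genes, and ptprc was highest in mutant 3. The highest library depended on the scaling: with library totals in place of TMM factors mutant 3 was the highest for 4 of the 4 members, against 30.7% of those genes, and mutant 2 for 0. Mutant 1 was the lowest for 4 of 4 with library totals too, against 16.5%.

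Between the 6 pairs of members the Pearson correlation over the 6 libraries ranged from 0.65 to 0.87 (median 0.78). The closest pair was coro1a and ptprc, with Pearson r = 0.87 (exact permutation p = 0.0208, adjusted 0.1) and Spearman rho = 0.77 (exact permutation p = 0.103, adjusted 0.272). The loosest was lcp1 and ptprc, with Pearson r = 0.65 (exact permutation p = 0.169, adjusted 0.169) and Spearman rho = 0.60 (exact permutation p = 0.242, adjusted 0.290). With adjustment over the 6 pairs, 0 of 6 passed in either measure (exact permutation test, two-sided, lowest adjusted p = 0.1 for Pearson and 0.272 for Spearman). Leaving out the 2 libraries farthest from the median of the first gene, which always took out mutant 1, gave r from -0.34 to 0.96 over 4 libraries, too few to say whether the members vary together without mutant 1. When libraries were scaled by their totals and not by TMM factors, r ranged from 0.76 to 0.94, and 5 of 6 pairs passed by Pearson and 3 of 6 by Spearman correlation (exact permutation test). There the same step of leaving out 2 libraries gave r from -0.01 to 0.76. Under library totals genes in general were more like the members. The median r of 8659 other genes with the members' mean pattern was 0.23, against -0.04 with TMM factors. How many pairs of other genes would pass was not computed, so the passing pairs are not shown to be particular to the members. The genes of a library share its scaling, its depth and its mix of cells, so these values describe the libraries. Deviations from the genotype mean gave r from 0.69 to 0.89.

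Ratios within a library do not depend on scaling. The ratio of coro1a to lcp1 was 1.096, 0.903 and 1.20 across wild-type 1 to 3 and 1.07, 0.973 and 1.00 across mutant 1 to 3, with means of 1.07 ± 0.151 and 1.01 ± 0.0510 (SD, n = 3 each). That of ptprc to lcp1 was 0.290, 0.236 and 0.311 across wild-type 1 to 3 and 0.267, 0.218 and 0.279 across mutant 1 to 3, with means of 0.279 ± 0.0387 and 0.254 ± 0.0323. That of rac2 to lcp1 was 0.478, 0.377 and 0.429 across wild-type 1 to 3 and 0.465, 0.372 and 0.381 across mutant 1 to 3, with means of 0.428 ± 0.0503 and 0.406 ± 0.0513. The genotypes overlapped in each ratio, and wild-type 2 and mutant 2 had the lowest values, that is the most lcp1 relative to coro1a, ptprc and rac2, in all 3.

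**Figure D2:**
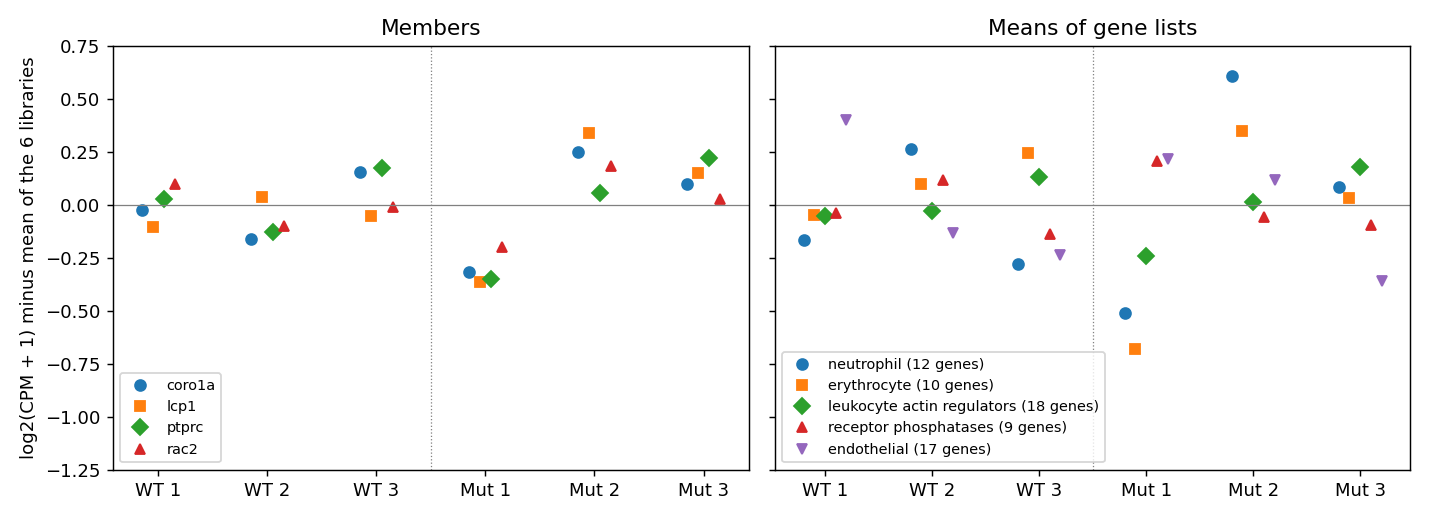
Left, log2(CPM + 1) of each member minus its mean over the 6 libraries. Right, the same averaged over gene lists, counting genes with a mean of at least 10 CPM. Members, neutrophil genes and erythrocyte genes are lowest in mutant 1, where the receptor phosphatase and endothelial means lie above 0.

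Relatives of the members that are used in many tissues did not pass either. Of the coronins, 4 of 8 tested genes had a fitted difference above 0 and 4 below, with a median of 0.02. The coronin 1C gene coro1ca stood at 119, 92.9 and 90.7 CPM across wild-type 1 to 3 and at 145, 114 and 89.5 CPM across mutant 1 to 3, highest in mutant 1, where coro1a was lowest. Its log2 difference was 0.21 ± 0.19 (SE), that of coro1cb -0.06 ± 0.21 and that of coro1b -0.43 ± 0.34. Over the 6 libraries the correlation with the mean pattern of the members was -0.54 for coro1ca, 0.03 for coro1cb and 0.05 for coro1b.

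The T-plastin gene pls3, which encodes the actin bundler of many cells outside the blood, stood at 131, 116 and 84.3 CPM across wild-type 1 to 3 and at 177, 190.4 and 93.6 CPM across mutant 1 to 3. Mutants 1 and 2 lay above every wild-type library, but mutant 3 lay inside the wild-type range. Its log2 difference came to 0.48 ± 0.25 (SE; 95% interval -0.05 to 1.01). The intestinal plastin gene pls1 was near 0 throughout, at 0.542, 1.95 and 0.713 CPM across wild-type 1 to 3 and at 0, 0 and 0.748 CPM across mutant 1 to 3. Its fitted log2 difference of -2.07 ± 1.99 (SE) rests on few reads.

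The broadly expressed Rac gene rac1a stood at 84.6, 95.5 and 66.7 CPM across wild-type 1 to 3 and at 106, 91.1 and 86.6 CPM across mutant 1 to 3, so that mutant 1 was highest for rac1a and lowest for rac2. The log2 difference of rac1a was 0.20 ± 0.17 (SE) and that of cdc42, which encodes a GTPase of cell polarity, 0.09 ± 0.14. No read fell on rac1b in any library. In the absence of a value for laptm5, its relatives laptm4a and laptm4b, which encode lysosomal membrane proteins of many tissues, differed by 0.07 ± 0.16 and -0.27 ± 0.34. Of these, laptm4a followed the members closely (r = 0.95 over 6 libraries), at 62.5, 63.3 and 67.9 CPM across wild-type 1 to 3 and at 57.4, 74.7 and 70.6 CPM across mutant 1 to 3. Among 8659 other genes with a mean of at least 10 CPM, 68 (0.785%) had an r of at least 0.9. The gene laptm4b had a lower mean and no r, and neither gene gives a value for laptm5.

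Of the receptor tyrosine phosphatases other than ptprc, 8 of 15 tested genes had a fitted difference above 0 and 7 below, with a median of 0.06. The genes ptprfa and ptprfb, which encode phosphatases of the LAR type, differed by 0.22 ± 0.22 and 0.47 ± 0.23 (SE), and ptprk, whose product binds itself between neighbouring cells, by 0.26 ± 0.20. The gene ptprfa stood at 180.4, 152 and 126 CPM across wild-type 1 to 3 and at 232, 179 and 122 CPM across mutant 1 to 3. All 3 were highest in mutant 1, and their correlations with the mean pattern of the members were -0.59, -0.43 and -0.76. That difference in pattern between ptprc and its relatives was not tested.

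**Figure D3:**
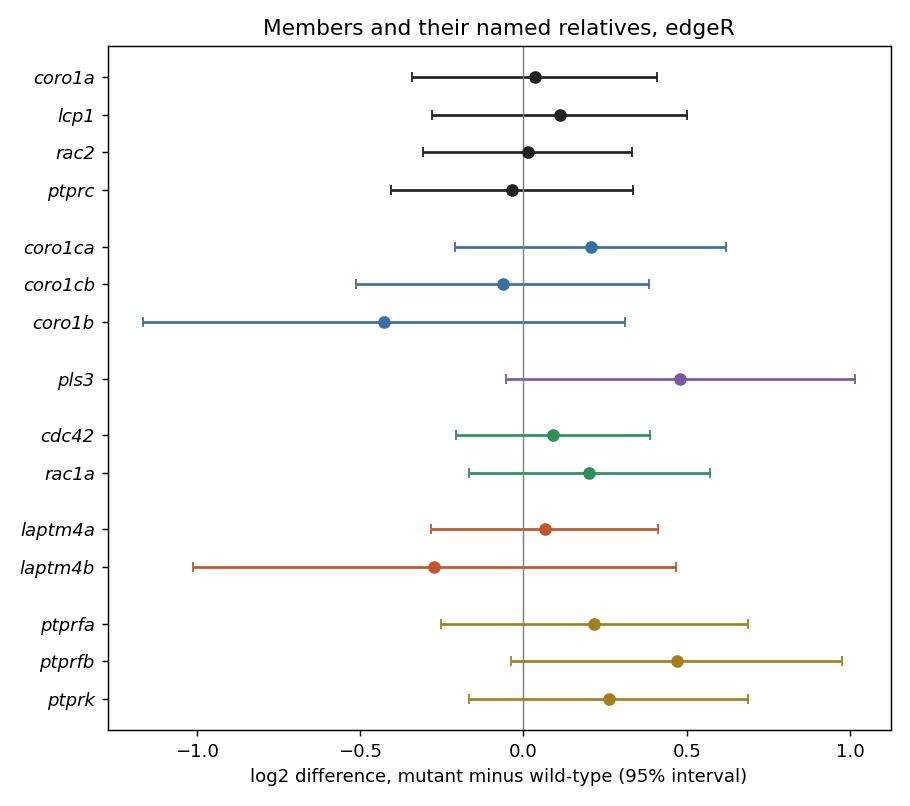
Log2 difference, mutant minus wild-type, of the 4 members and of the named relatives in the coronin, plastin, Rac, Laptm and receptor phosphatase groups, with 95% intervals from the edgeR fit (pls1, with few reads, is left out). The intervals of the members lie between -0.41 and 0.50, and every interval shown includes 0. Of the receptor phosphatases only the 3 with the highest mean CPM are shown.

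Genes that act with the members showed no common direction, and 0 passed in any list. Over all tested genes 9547 had a fitted log2 difference above 0 and 9834 below, with a median of 0.00. Of the medians of 17 lists, 14 crossed 0 when single libraries were left out, so these carry no direction. Those that stayed below 0 were macrophage genes (-0.26 to -0.08), thrombocyte and stem cell genes (-0.45 to -0.06) and plastins (-3.93 to -0.40). The plastin median rests on pls1, which had few reads. Of the 16 tested macrophage genes only 3 had a mean of at least 10 CPM, so that median rests mostly on genes with few reads. In the main fit the thrombocyte and stem cell median is the value of a single gene, fli1b, at -0.16 ± 0.17 (SE). In that list 3 of 9 tested genes were fitted above 0. No list median was tested. Of leukocyte actin regulators 9 of 22 tested genes had a fitted difference above 0 and 13 below, with a median of -0.05. The coactosin gene cotl1 differed by 0.17 ± 0.16 (SE) and arpc1b, which encodes a subunit of the Arp2/3 complex that coronin 1A binds, by -0.04 ± 0.18. The gene arpc1b stood at 372, 378 and 361 CPM across wild-type 1 to 3 and at 268, 449 and 363 CPM across mutant 1 to 3, with mutant 1 lowest and mutant 2 highest as for lcp1.

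Of the genes that switch on or respond to Rac2, oxidase subunits included, 10 of 17 tested genes had a fitted difference above 0 and 7 below, with a median of 0.05. The listed genes dock2, vav1, tiam1b and arhgdib matched no row and were not read. The kinase gene pak2a, whose product is turned on by Rac and Cdc42, differed by 0.30 ± 0.19 and dock8, which encodes an exchange factor for Cdc42, by 0.11 ± 0.16. Of the kinases and adaptors of CD45 signalling, 10 of 21 tested genes had a fitted difference above 0 and 11 below, with a median of -0.01. The Tec family kinase gene btk differed by -0.01 ± 0.20, the Src family gene yes1 by 0.23 ± 0.21 and ptpn6, which encodes the phosphatase SHP-1, by 0.36 ± 0.23. The gene ptpn6 stood at 57.6, 53.4 and 61.5 CPM across wild-type 1 to 3 and at 46.0, 96.0 and 79.6 CPM across mutant 1 to 3, again lowest in mutant 1 and highest in mutant 2.

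Of leukocyte integrins and chemokine receptors, 3 of 8 tested genes had a fitted difference above 0 and 5 below, with a median of -0.05. The chemokine receptor gene cxcr4b differed by -0.34 ± 0.26, the β2 integrin gene itgb2 by 0.07 ± 0.21 and the chemokine receptor gene ccr9a by 0.12 ± 0.24. Of leukocyte transcription factors, 5 of 11 tested genes had a fitted difference above 0 and 6 below, with a median of -0.09. The differences were 0.08 ± 0.16 for cebpb and 0.07 ± 0.14 for cebpa, both of the C/EBP family, and 0.05 ± 0.26 for spi1b, the zebrafish PU.1 gene of myeloid cells. Of lysosomal and ubiquitin ligase genes, 10 of 13 tested genes had a fitted difference above 0 and 3 below, with a median of 0.03, with the cathepsin genes ctsba at -0.04 ± 0.15, ctssb.1 at 0.11 ± 0.39 and ctsd at 0.14 ± 0.15.

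The pattern over libraries was compared with the mean standardised pattern of the 4 members for genes with a mean of at least 10 CPM. Of 8659 such genes, 244 (2.82%) had a Pearson r of at least 0.8 and the median was -0.04. The share was 5 of 18 in the list of leukocyte actin regulators (median r 0.59), 3 of 7 among integrins and chemokine receptors (0.23), 2 of 7 among transcription factors (0.12), 2 of 15 among kinases and adaptors (0.23), 2 of 10 among lysosomal and ubiquitin ligase genes (0.09) and 1 of 15 in the Rac2 list (0.29). The 5 actin regulators were wasb, which encodes a Wiskott-Aldrich protein that turns on Arp2/3 (r = 0.97), myo1f (0.90), plek (0.89), arpc1b and tagapa (0.84). In the other lists they were spi1b (r = 0.93), cebpa (0.85), itgb2 (0.92), ccr9a (0.91), itgb7 (0.83), ptpn6 (0.92), the adaptor gene skap2 (0.84), the cathepsin genes ctsba (0.90) and ctssa (0.82) and the oxidase subunit gene cyba (0.82). For arpc1b it was 0.88. Others did not follow, such as cxcr4b (-0.05), cebpb (-0.39) and the lysosomal genes lamp1 (-0.80) and slc37a2 (-0.72). No share was tested, since 6 libraries allow many genes to follow any pattern. The shares also depended on the scaling. With library totals in place of TMM factors 5.42% of the 8659 genes reached 0.8, and their median r was 0.23. Of actin regulators 8 of 18 reached 0.8. Under that scaling the share was 4 of 15 for kinases and adaptors. It stayed at 3 of 7 for integrins and chemokine receptors, 2 of 7 for transcription factors, 2 of 10 for lysosomal and ubiquitin ligase genes and 1 of 15 for the Rac2 list.

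**Figure D4:**
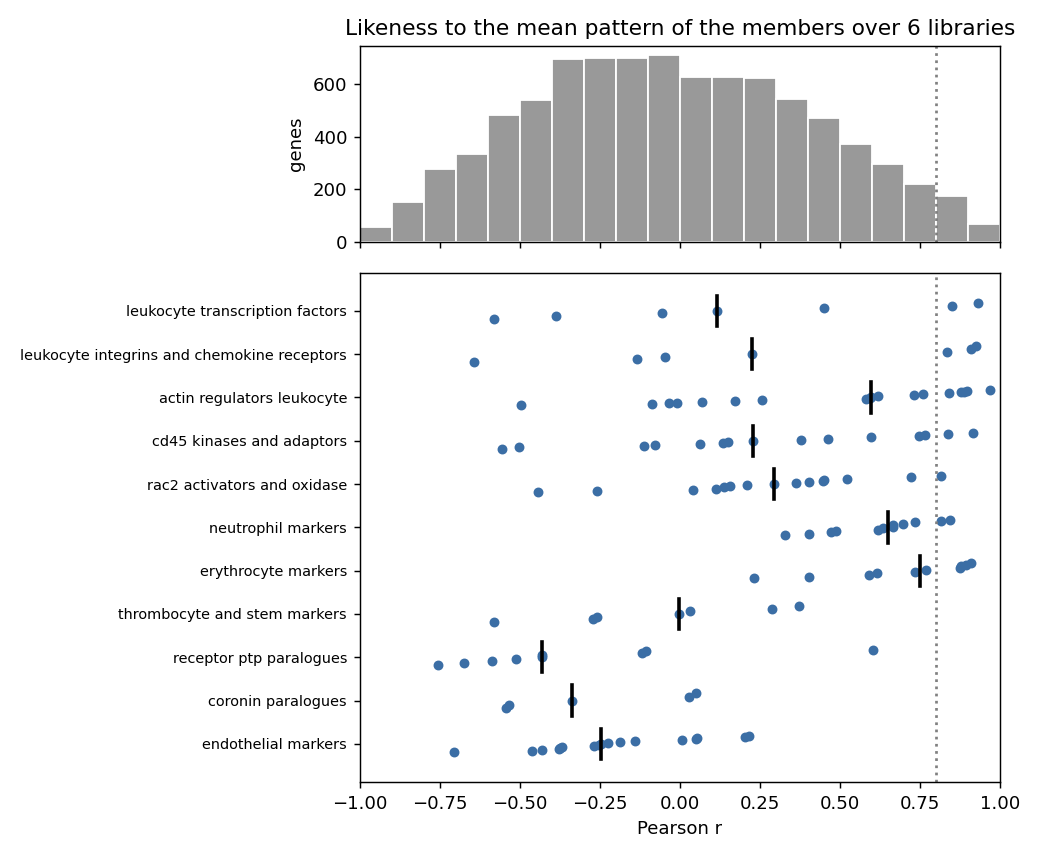
Pearson r over the 6 libraries between single genes and the mean standardised log2(CPM + 1) pattern of the 4 members. The upper panel counts 8659 genes with a mean of at least 10 CPM, and the lower panel shows genes of the lists as points with the list median as a bar, the dotted line marking 0.8. Medians are 0.75 for erythrocyte, 0.65 for neutrophil and -0.25 for endothelial genes.

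By this measure the 10 genes most like the members were smc5, pttg1ipa, nudt3a, CCRN4L_(2_of_2), nkain1, upf3b, zranb1b, gale, pisd and ppp2r2ab, with r from 0.976 to 0.990 over 6 libraries. They include genes for chromosome maintenance (smc5), RNA surveillance (upf3b), galactose metabolism (gale) and phospholipid synthesis (pisd), and none is in the lists. The closest, smc5, stood at 56.5, 54.9 and 57.9 CPM across wild-type 1 to 3 and at 47.2, 63.4 and 59.7 CPM across mutant 1 to 3. The log2 differences of the 10 genes lay between 0.00 and 0.18.

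Markers of single blood cell types were read beside the members. Of 15 neutrophil genes 13 had a row, and they summed to 7441 to 11834 CPM over the wild-type libraries and to 7264 to 17659.5 CPM over the mutant ones. Of these 11 of 13 tested genes had a fitted difference above 0 and 2 below, with a median of 0.21, but the median was -0.10 without mutant 2 and 0.43 without mutant 1. The lysozyme gene lyz stood at 4994, 6215 and 4076 CPM across wild-type 1 to 3 and at 4489.9, 10489 and 4746 CPM across mutant 1 to 3, with mutant 2 far above the other 5 libraries. Its log2 difference was 0.37 ± 0.30 (SE), that of the granule protease gene npsn 0.33 ± 0.27 and that of the proteoglycan gene srgn 0.12 ± 0.22. Relative to the mean of the libraries, 12 neutrophil genes of at least 10 CPM stood at -0.17, 0.26 and -0.28 across wild-type 1 to 3 and at -0.51, 0.61 and 0.08 across mutant 1 to 3. They were low in mutant 1 and high in mutant 2 as the members were, but lower in wild-type 3, where the members were above their mean, and 2 of 12 had an r of at least 0.8 with the members (mpx, the myeloperoxidase gene, and adam8a; median 0.65). With library totals in place of TMM factors 0 of 12 did (median 0.66).

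Macrophage genes were read at uneven levels. Of 16 tested genes 3 had a mean of at least 10 CPM, namely apoeb, csf1rb and slc7a7. The receptor gene csf1rb stood at 44.6, 58.6 and 82.0 CPM across wild-type 1 to 3 and at 48.7, 26.7 and 91.1 CPM across mutant 1 to 3, with mutant 2 lowest and mutant 3 highest. Others were at or near 0: c1qc had no read, c1qa had reads in mutant 2 alone, and marco stood at 0.872, 0.389 and 0.963 CPM across wild-type 1 to 3 and at 0.935, 0.855 and 0.561 CPM across mutant 1 to 3. The perforin-like gene mpeg1 stood at 2.99, 6.001 and 8.98 CPM across wild-type 1 to 3 and at 2.30, 3.80 and 4.57 CPM across mutant 1 to 3 and the receptor gene csf1ra at 2.73, 0.664 and 2.74 CPM across wild-type 1 to 3 and at 1.23, 0.570 and 1.78 CPM across mutant 1 to 3, and mfap4 reached 9.75 CPM in wild-type 3. The list summed to 312 to 510.0 CPM over the wild-type libraries and to 344 to 397 CPM over the mutant ones, most of it from apoeb, which other tissues of the embryo also express, and 6 of 16 tested genes had a fitted difference above 0 and 10 below, with a median of -0.09. The log2 differences were -0.06 ± 0.22 (SE) for apoeb, -0.15 ± 0.38 for csf1rb and -0.12 ± 0.30 for the transporter gene slc7a7. Of the 3 macrophage genes with at least 10 CPM on average, 0 had an r of at least 0.8 with the members.

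Lymphocyte genes summed to 73.3 to 85.0 CPM over the wild-type libraries and to 55.2 to 108 CPM over the mutant ones, most of it from ccr9a. The immunoglobulin symbol ighv1-4 differed by 0.34 ± 0.46 (SE) and the B cell receptor gene cd79a by -0.57 ± 0.76, and cd79b had no read. The T cell kinase gene lck stood at 0.542, 0.641 and 0.790 CPM across wild-type 1 to 3 and at 1.21, 0.712 and 0.357 CPM across mutant 1 to 3. In this list 6 of 9 tested genes had a fitted difference above 0 and 3 below, with a median of 0.21. The tested genes other than ccr9a and ighv1-4 had few reads, and the median is the value of lck, 0.21 ± 1.40 (SE).

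Red cell genes included some with the library pattern of the members. The erythrocyte list summed to 2389.5 to 3257 CPM over the wild-type libraries and to 1575 to 4169 CPM over the mutant ones, and 4 of 10 of its genes had an r of at least 0.8 with the members (hbae1, slc4a1a, alas2 and epb41b; median 0.75). With library totals the share was 4 of 10 too (median 0.69). The globin gene hbae3 stood at 1168, 1773 and 1676 CPM across wild-type 1 to 3 and at 791, 2232 and 1355 CPM across mutant 1 to 3, lowest in mutant 1 and highest in mutant 2. The log2 differences were -0.08 ± 0.31 (SE) for hbae3, -0.20 ± 0.32 for hbbe1.1 and 0.03 ± 0.32 for hbae1, globins with near-identical copies whose share of reads is uncertain. In this list 4 of 11 tested genes had a fitted difference above 0 and 7 below, with a median of -0.08. In the thrombocyte and stem cell list 3 of 9 tested genes had a fitted difference above 0 and 6 below, with a median of -0.16, with thbs1b at -0.49 ± 0.26, f13a1b at -0.05 ± 0.17 and meis1 at 0.28 ± 0.17, and 0 of 7 followed the members at an r of at least 0.8.

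Endothelial genes, which the labels name as the sorted population, were read in every library. The list summed to 925 to 1461 CPM over the wild-type libraries and to 816 to 1279.9 CPM over the mutant ones, 0 of 17 had an r of at least 0.8 with the members (median -0.25), and 8 of 19 tested genes had a fitted difference above 0 and 11 below, with a median of -0.02. The scavenger receptor gene stab2 differed by -0.11 ± 0.26 (SE), vsg1, an older symbol of plvapb, by -0.01 ± 0.35 and the transcription factor gene fli1a by -0.06 ± 0.18. Relative to the mean of the libraries the endothelial genes stood at 0.40, -0.13 and -0.24 across wild-type 1 to 3 and at 0.22, 0.12 and -0.36 across mutant 1 to 3, so wild-type 1 was highest and mutant 3 lowest. The gene kdrl stood at 54.8, 35.2 and 36.8 CPM across wild-type 1 to 3. Across mutant 1 to 3 it stood at 44.4, 39.4 and 34.3 CPM, and cdh5 ranged from 10.3 to 16.9 CPM over the 6 libraries. The share of endothelial cells in the libraries was not tested, nor was the part of neutrophil and red cell content in the values of the members.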

How the data were processed

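RNA of 6 libraries was amplified and sequenced, per the labels' protocols. What the authors deposited are raw counts, 1 whole number for each gene symbol and library. The submitters' processing notes name bcl2fastq, STAR and HTSeq, and danRer7 and Zv9 as builds. Versions, annotation and strandedness were not given in the sources used here. A gene and an overlapping or antisense partner therefore cannot be separated. The 5 summary rows of each file, which hold 22.1% to 28.1% of its summed counts and are assigned to no single gene, were left out. The series-wide table was identical, with 0 genes differing.

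The analysis used R 4.3.3 and edgeR 4.0.16 (filterByExpr, TMM, robust quasi-likelihood test, no block), which left 19381 genes. DESeq2 1.42.0 and limma 3.58.1 were alternatives, and plots used Python 3.11.15 with matplotlib 3.10.9. P-values were adjusted by Benjamini-Hochberg with a threshold of 0.05. The SE is the absolute log2 difference divided by the square root of the F statistic. Correlations used log2(CPM + 1), with exact permutation over 720 pairings, or over the fewer pairings within genotypes for deviations from the genotype mean. Their adjustment covers 6 pairs, since laptm5 had no value. The members and the 17 other lists were chosen with earlier results of these data known. Of 248 list entries 201 matched a symbol, 11 an older symbol in a RefSeq table of the assembly GRCz12tu, and 36 none. Named genes are the members, in each list those past the threshold and otherwise the 3 with the highest mean CPM, and the 10 most like the members. Some genes that this rule names are not reported here. Genes shown beyond these were chosen after their values were seen. They are mpeg1, mfap4, csf1ra, marco, mafba, c1qa, c1qc, lck, cd79b, rac1b, kdrl, cdh5, fli1b and ptprsb. Those listed only for their likeness to the members were also chosen in this way. The tests were tried on simulated counts with planted changes. There edgeR called 28.4% of 2-fold, 74.6% of 4-fold and 72.7% of 8-fold changes, with 5 false calls. Of 2-fold changes DESeq2 called 38.8% and limma-voom 29.9%, with 49 and 3 false calls in all. Changes were planted only in genes above a floor of expected reads, with a dispersion that followed the trend over genes. The shares do not cover genes with few reads. Many 2-fold changes among genes like those simulated would therefore be missed. The members had an SE of 0.15 (rac2) to 0.18 (lcp1), below the median SE of 0.376 over all tested genes. The simulated shares therefore need not hold for the members, whose intervals give their precision under the edgeR fit.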

Additional observations from a re-analysis of the deposited data

How the results depend on the processing

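The number of changed genes was 0 in DESeq2, in limma-voom and in edgeR under each other scaling, filter and without each library, with 118 (strict low-count filter, 8846 genes tested) to 929 genes (without mutant 3) at an unadjusted p under 0.05. The 59 named genes had 940 alternative values, of which 0 passed, 834 had the sign of the main value and 106, in 41 genes, had the other. The cause was not tested. In limma-voom the sign turned for coro1a -0.04686, rac2 -0.02091, itgb2 -0.04292, ccr9a -0.03168, spi1b -0.1314, apoeb 0.07574, hbae1 -0.2016, vsg1 0.1136, smc5 -0.03855, pttg1ipa -0.248, CCRN4L_(2_of_2) -0.03053, nkain1 -0.01521, upf3b -0.009083, zranb1b -0.03205, gale -0.05392, pisd -0.07715. With library totals the sign turned for btk 0.006776, nudt3a 0.00389. Under the replicate block the sign turned for spi1b -0.02017, hbae1 -0.0874, vsg1 0.03583, smc5 -0.001929, pttg1ipa -0.05022, gale -0.004069, pisd -0.002614. With upper-quartile factors the sign turned for smc5 -0.0017. With each library left out in turn, the ranges that cross 0 were coro1a -0.08752 to 0.1811, lcp1 -0.04303 to 0.2889, ptprc -0.164 to 0.1136, rac2 -0.07881 to 0.1094, coro1cb -0.2092 to 0.1133, laptm4a -0.01153 to 0.1712, ptprfa -0.02067 to 0.425, arpc1b -0.2303 to 0.132, dock8 -0.01061 to 0.1933, btk -0.2079 to 0.153, itgb2 -0.1015 to 0.2972, ccr9a -0.04572 to 0.3912, ctsba -0.1152 to 0.05629, ctssb.1 -0.2996 to 0.5994, cebpb -0.005409 to 0.174, spi1b -0.1976 to 0.328, lyz -0.1407 to 0.5805, npsn -0.0835 to 0.5994, srgn -0.1703 to 0.3157, apoeb -0.2323 to 0.2679, csf1rb -0.7116 to 0.18, slc7a7 -0.3126 to 0.1715, ighv1-4 -0.3347 to 0.6502, cd79a -0.9179 to 0.03175, f13a1b -0.2126 to 0.05349, hbae3 -0.5188 to 0.2213, hbbe1.1 -0.7118 to 0.098, hbae1 -0.3957 to 0.3499, stab2 -0.3145 to 0.144, vsg1 -0.3226 to 0.5107, fli1a -0.2225 to 0.08187, smc5 -0.07689 to 0.1263, pttg1ipa -0.2516 to 0.4576, nudt3a -0.1191 to 0.1582, CCRN4L_(2_of_2) -0.01332 to 0.4862, nkain1 -0.04019 to 0.2004, upf3b -0.05239 to 0.2402, zranb1b -0.03726 to 0.2909, gale -0.1248 to 0.1848, pisd -0.1409 to 0.2557, ppp2r2ab -0.05712 to 0.06205. With library totals the correlations passed for coro1a and lcp1 (r = 0.851), coro1a and ptprc (0.928), coro1a and rac2 (0.939), lcp1 and rac2 (0.830) and ptprc and rac2 (0.907). The share of passing pairs among other genes was not computed. The CPM scale without log and a pseudocount of 0.1 gave 0 passing pairs, as did deviations from the genotype mean. Those deviations were permuted within each genotype only, which allows so few pairings that a pair could hardly pass there. Of 272 list medians 16 moved by more than the spread between libraries, and 0 of 18 ratio means did. The replicate block called 0 genes (lowest adjusted p 0.0535), with 523 at an unadjusted p under 0.05. Deviations of same-numbered libraries correlated at 0.0598, 0.0211 and 0.140, with wild-type 1 and mutant 2 closer to another number than to their own, so the numbers were not taken to pair the libraries. The list medians, the list likeness and the highest library with library totals and the ratios without single libraries were recomputed as alternatives chosen after seeing the data. Depth limits genes with few reads, such as pls1 and marco.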
